A study of Homo sapiens with 6 samples.

Results

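Of 10 genes of the Hippo pathway, CCN1, LATS2, AJUBA and TEAD1 were higher and YAP1 was lower in COV434 cells after 4HC (adjusted p-value under 0.05, which 36.4% of all genes tested passed), and FJX1 had been picked out because its RNA was lower. The 10 genes were FJX1, the Hippo kinase LATS2, the junctional adaptor AJUBA, the YAP-binding protein AMOTL2, the coactivators YAP1 and WWTR1 (TAZ), the DNA-binding factor TEAD1 and the target genes CCN1, CCN2 and ANKRD1. They were taken by symbol from the 16798 coding genes listed, and all 10 were listed. AMOTL2 did not pass the filter on low counts, so 9 of the 10 were among the 12368 genes tested. FJX1 was selected on its read counts in 4HC and control, for its lower level in 4HC, so its values for that comparison are given as a description without a test. The other 9 genes were chosen for their place in the pathway, with earlier results of these data known.

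Total RNA of 6 samples of COV434 cells was sequenced. COV434 is a human line that the labels call granulosa cells (GCs), and the labels give the controls as WT. There were 3 control samples and 3 samples exposed to 15 µM 4HC (4-hydroxycyclophosphamide, the active metabolite of cyclophosphamide, CTX) for 24 h. The labels mark the treated samples as CTX under genotype, although it is a treatment. All samples came from the same line, and nothing in the labels or the methods says that the replicates were separate cultures, so the p-values measure only the spread between these samples, which may be technical.

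Each sample held between 16133786 and 16702316 expected counts, estimates of the reads from each gene that need not be whole. Levels of a gene are given as CPM when samples are compared, and as TPM when genes are compared. CPM is counts per 1000000 of the sample's total, with that total adjusted by a TMM factor. TPM takes transcript length into account, sums to 1000000 per sample and carries no TMM factor. Of 13 listed GC markers, 2 (AMH and HSD17B1) had a mean of at least 1 CPM. FOXL2, a defining factor of GCs, was at 0 in 5 of 6 samples and had 3 counts in the other, and FSHR and CYP19A1 at most 1 count. The summed GC markers ranged from 17.4 to 24.3 CPM in control and from 19.9 to 21.2 CPM in 4HC, and the 5 stromal markers from 112 to 121 CPM and from 110 to 121 CPM. The stromal sum came mainly from LUM and DCN, with means of 65.8 and 48.0 CPM in control. The collagen genes COL1A2 and COL1A1 had means of 2.88 and 0.918 CPM in control. Epithelial markers summed to at most 8.12 CPM, leukocyte markers to at most 5.25 CPM and endothelial markers to at most 1.39 CPM. None of the tested markers passed the test, and their part in the results below was not tested. In bulk samples such as these, fewer cells of a type and less RNA per cell cannot be told apart.

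The Hippo pathway is a kinase cascade in which the MST kinases activate LATS1 and LATS2, which phosphorylate YAP1 and WWTR1 and keep them out of the nucleus. Unphosphorylated YAP1 and WWTR1 enter the nucleus, bind TEAD factors and switch on genes such as CCN1, CCN2 and ANKRD1. The large cadherins of the Fat and Dachsous families feed into the cascade, and FJX1 is the human relative of the fly four-jointed kinase, which modifies these cadherins in the Golgi. In the ovary the pathway is known for its part in follicle growth and GC proliferation. The pathway works largely through phosphorylation and localization, which RNA counts do not measure.

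TEAD factors bind the letters GGAATG, which read CATTCC on the other strand. The 250 bases before the annotated starts were searched for this motif on both strands in RefSeq promoter windows of GRCh38.p14, of which 8 of the 10 genes had at least 1. Among all 35116 windows, 11.9% held at least 1 match, 0.940% at least 2 and 0.0826% at least 3. The windows below show the targets CCN2 and ANKRD1, the coactivator YAP1 and FJX1, with the matches in capitals.
CCN2, chr6:131951373-131951622, minus strand: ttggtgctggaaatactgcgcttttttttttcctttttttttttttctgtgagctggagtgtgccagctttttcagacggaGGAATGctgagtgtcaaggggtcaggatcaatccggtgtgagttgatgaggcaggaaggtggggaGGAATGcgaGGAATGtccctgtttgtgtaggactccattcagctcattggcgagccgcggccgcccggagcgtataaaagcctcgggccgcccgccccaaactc
ANKRD1, chr10:90921088-90921337, minus strand: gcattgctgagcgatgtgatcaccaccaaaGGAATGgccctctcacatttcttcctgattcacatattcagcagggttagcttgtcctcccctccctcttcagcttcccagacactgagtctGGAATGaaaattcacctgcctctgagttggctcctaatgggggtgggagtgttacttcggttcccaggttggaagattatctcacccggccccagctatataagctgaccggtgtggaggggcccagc
YAP1, chr11:102110197-102110446, plus strand: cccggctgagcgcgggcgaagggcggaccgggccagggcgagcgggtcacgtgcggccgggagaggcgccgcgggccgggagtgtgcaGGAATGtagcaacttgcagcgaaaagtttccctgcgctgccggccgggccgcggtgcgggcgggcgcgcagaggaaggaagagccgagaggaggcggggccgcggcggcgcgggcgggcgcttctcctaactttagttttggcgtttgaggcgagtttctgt
FJX1, chr11:35618210-35618459, plus strand: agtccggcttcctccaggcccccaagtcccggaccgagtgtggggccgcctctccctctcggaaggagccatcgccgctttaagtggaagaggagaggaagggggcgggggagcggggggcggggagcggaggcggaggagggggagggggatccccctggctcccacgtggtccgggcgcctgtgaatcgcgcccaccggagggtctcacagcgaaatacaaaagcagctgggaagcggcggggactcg
CCN2 held 3 matches, at bases 169 to 164, 104 to 99 and 95 to 90 before the start, and ANKRD1 held 2, at bases 220 to 215 and 128 to 123. YAP1 held 1 match at bases 162 to 157. A match was also found in 1 window of AMOTL2, at bases 69 to 64, and in 1 window of AJUBA, at bases 59 to 54. The letters were not in the windows of FJX1, LATS2 or WWTR1. CCN1 and TEAD1 had no window and were not searched. These positions count from the RefSeq starts, which differ from the GENCODE gene spans given below. The ANKRD1 match at bases 128 to 123 and those of AMOTL2 and AJUBA lie inside the GENCODE spans. A match is a description of the letters and was not tested as a binding site.

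FJX1 lies on chromosome 11 (GRCh38, chr11:35618419-35620868, plus strand) and is an intronless gene. Its expected counts were 153, 114 and 161 in the control samples and 90, 94 and 66 in the 4HC samples. As CPM these were 9.43, 7.02 and 9.71 against 5.43, 5.80 and 4.04, so every 4HC sample lay below every control sample. The mean was 8.72 ± 1.48 CPM in control and 5.09 ± 0.927 CPM in 4HC (SD, n = 3 each). This was a 1.71-fold lower level, with a log2 fold change of -0.78 ± 0.14 (SE). Removing any single sample left the log2 fold change between -0.91 and -0.64. Among the 12368 genes tested, 41 had a lower log2 fold change. Among the 10375 of these with 5 CPM or more in control or 4HC, FJX1 had rank 2 by its fall. No p-value is given, since FJX1 was picked for this difference.

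**Figure D1:**
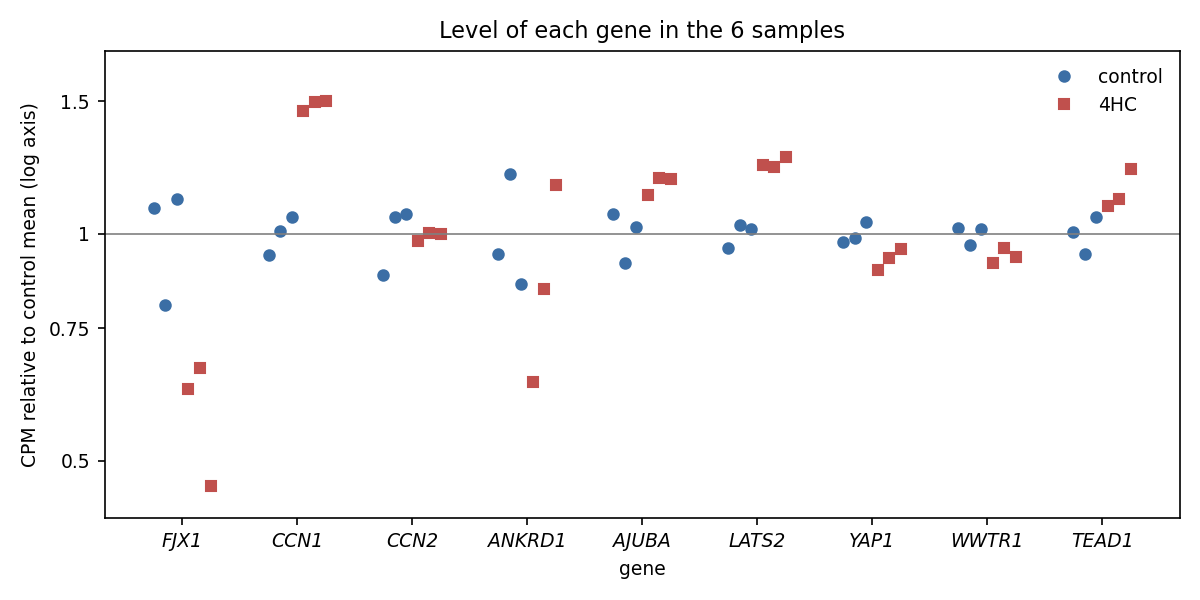
CPM of the 9 tested genes in each sample relative to the gene's control mean (log axis), with circles for the 3 control and squares for the 3 4HC samples. The FJX1 squares (4.04 to 5.80 CPM) lie below its circles (7.02 to 9.71 CPM), the CCN1 squares (26.4 to 27.2 CPM) lie above its circles (16.9 to 19.1 CPM), and the CCN2 and ANKRD1 groups overlap.

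Of the Fat and Dachsous cadherins, the proteins on which the fly relative of FJX1 acts, FAT3 and FAT4 were lower in 4HC and the other tested members did not pass the test. FAT1, the most abundant by TPM (25.7 ± 0.670 in control), had 240 ± 6.93 CPM in control and 230 ± 6.52 CPM in 4HC and did not pass the test (log2 fold change -0.06 ± 0.035 SE, adjusted p = 0.166, edgeR's quasi-likelihood test). FAT4, which had 41.7, 39.7 and 40.7 CPM in control and 35.0, 38.3 and 34.5 CPM in 4HC, fell by 0.18 on the log2 scale (adjusted p = 0.0102, same edgeR test). That call was lost without 4HC replicate 3 (adjusted p = 0.0515, edgeR), with DESeq2 (0.0514) and with limma on TPM (0.209) or FPKM (0.280). FAT3 went from 2.77 ± 0.107 CPM to 1.93 ± 0.179 CPM, so that its log2 fold change was -0.52 ± 0.20 SE with an adjusted p of 0.0384 by edgeR. The call for FAT3 was lost when any 1 of the 6 samples was left out (adjusted p between 0.0555 and 0.137, edgeR). FAT2 (0.756 and 0.896 CPM) and DCHS2 (10.0 and 8.63 CPM) did not pass the test, with adjusted p-values of 0.604 and 0.110 by edgeR. DCHS2 passed it without 4HC replicate 1 (adjusted p = 0.0297, edgeR). DCHS1 had at most 7 counts in any sample and was not tested. Of the intracellular genes of this group, DLG5, a scaffold protein, rose by 0.20 on the log2 scale, from 65.1 ± 0.634 to 74.8 ± 3.01 CPM (adjusted p = 0.000456, edgeR). LIX1L, a relative of a fly Fat-pathway gene, fell by 0.13 on the log2 scale (adjusted p = 0.0388, edgeR), a call lost in 10 of 15 alternatives. Among them were the fits without control replicates 2 (adjusted p = 0.0620, edgeR) and 3 (0.232) and without 4HC replicates 2 (0.197) and 3 (0.0542).

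LATS2 rose. Its CPM was 33.8, 36.3 and 35.8 in control and 43.6, 43.4 and 44.6 in 4HC, with no overlap between the groups. The fold was 1.24 and the log2 fold change 0.31 ± 0.055 SE (adjusted p = 8.5e-06, edgeR's quasi-likelihood test with Benjamini-Hochberg adjustment over all genes tested). The call held in all 15 alternatives run. Its paralog LATS1, which carries out the same phosphorylation of YAP1 and WWTR1, had 56.8, 55.0 and 58.2 CPM in control and 57.5, 52.6 and 56.6 CPM in 4HC. These groups overlapped, and LATS1 did not pass the test (log2 fold change -0.03 ± 0.050 SE, adjusted p = 0.702, edgeR). Set against each other in TPM, the ratio of LATS2 to LATS1 was 0.719, 0.825 and 0.786 in control and 0.965, 1.06 and 0.997 in 4HC. LATS2, on chromosome 13 (chr13:20973032-21061547, minus strand), is both a kinase of the pathway and one of its known target genes.

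Of the AJUBA family of LIM-domain proteins, which bind LATS kinases at cell junctions, 2 of 3 passed the edgeR test as higher. Over all genes tested, 19.2% did. AJUBA (chr14:22971174-22982642, minus strand) had 24.4, 21.0 and 23.5 CPM in control and 25.8, 27.3 and 27.1 CPM in 4HC, and the groups did not overlap. Its log2 fold change was 0.22 ± 0.067 SE (adjusted p = 0.00792, edgeR). The call was lost with DESeq2 (adjusted p = 0.0738), with limma on TPM (0.0645) and in edgeR without control replicate 2 (0.0846). WTIP had 11.8, 12.4 and 11.2 CPM in control and 19.5, 18.9 and 16.0 CPM in 4HC, with no overlap. Its log2 fold change of 0.62 ± 0.088 SE (adjusted p = 7.7e-08, edgeR) kept its call in all 15 alternatives. LIMD1 had 60.9 ± 1.36 and 63.7 ± 2.38 CPM and did not pass the test (adjusted p = 0.307, edgeR). The angiomotins, which hold YAP1 at junctions, were near the limit of the depth. AMOTL2 (chr3:134355874-134375479, minus strand) had 0, 0 and 0 counts in control and 1, 3 and 1 counts in 4HC. Both groups were at or under the 3 counts that a count of 0 allows per library, so no fold was given. AMOT had 8 to 16 counts per sample and did not pass the test (adjusted p = 0.301, edgeR), and AMOTL1 had at most 7 counts and was not tested.

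YAP1, the more abundant coactivator, fell slightly. It had 272, 276 and 289 CPM in control and 250, 259 and 267 CPM in 4HC, so the groups did not overlap, and its fold was 0.926 (log2 fold change -0.11 ± 0.035 SE, adjusted p = 0.00947, edgeR). The call was lost without control replicate 3 (adjusted p = 0.0983, edgeR) and with limma on TPM (0.0540) or FPKM (0.122). WWTR1 had 116, 110 and 115 CPM in control and 104, 109 and 106 CPM in 4HC. Its groups did not overlap either, but it did not pass the test (log2 fold change -0.10 ± 0.041 SE, 95% interval of the fold 0.883 to 0.989, adjusted p = 0.0533, edgeR). WWTR1 did pass without control replicate 2 (adjusted p = 0.0251, edgeR). In TPM the sum of both coactivators was 125 ± 3.69 in control and 116 ± 2.61 in 4HC, and YAP1 made up 70.1% and 70.0% of it. The ratio of YAP1 to WWTR1 in TPM overlapped between the groups, at 2.35 ± 0.0841 in control and 2.34 ± 0.0686 in 4HC. YAP1 spans chr11:102110461-102233423 on the plus strand and WWTR1 chr3:149517235-149736714 on the minus strand.

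YAP1 was the member whose counts were spread over several transcripts. Of 15 listed, 5 held at least 5% of its counts in either group, whereas each of the other 8 members with counts in both groups had 1 such transcript. YAP1-208, with 8 exons and a coding length of 1464 bases, took 35.1%, 42.3% and 36.7% of YAP1 counts in control and 28.1%, 32.6% and 33.7% in 4HC. YAP1-203, with 9 exons and a coding length of 978 bases, took 17.6%, 19.9% and 19.5% in control and 25.8%, 25.7% and 24.6% in 4HC. A YAP1 transcript with no name in the annotation used took 2.09% ± 1.36 in control and 5.49% ± 0.837 in 4HC. The groups did not overlap for these 3 transcripts and overlapped for YAP1-209 and YAP1-204. The unnamed transcript reached the 5% cutoff only in 4HC, where its share was higher. Its difference is therefore given as a description only. The same count over all transcripts was not made, so 3 of 5 cannot be set against a background. With 3 samples against 3 the smallest p-value of an exact permutation test is 0.1, so none of the 5 shares could pass at 0.05. The counting divided reads of shared exons among the transcripts by estimation, which makes these shares less certain than the gene's total.

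**Figure D2:**
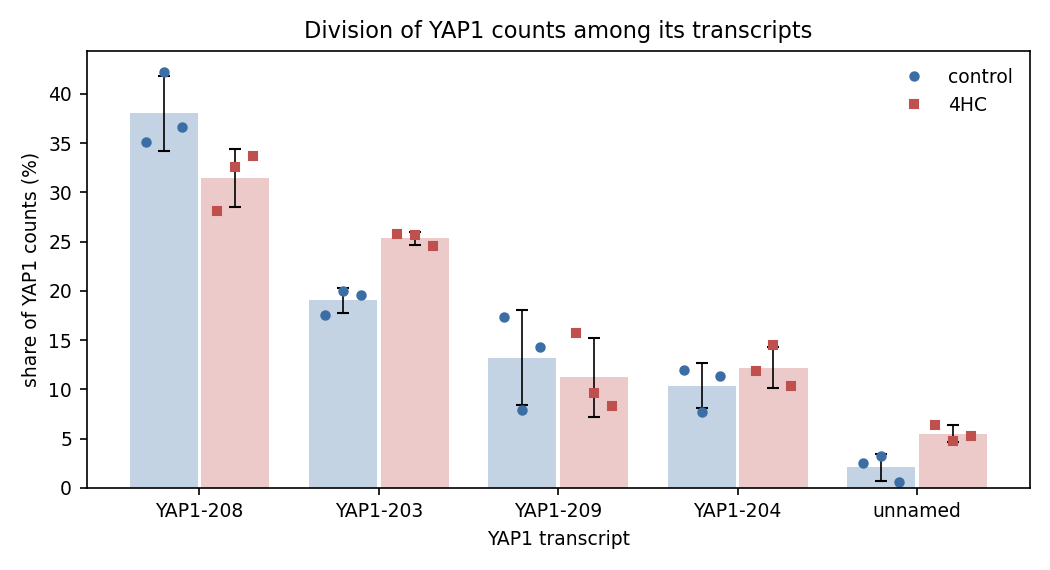
Share of YAP1 expected counts (percent) held by each of the 5 transcripts with at least 5% in either group, with points for the 3 control and 3 4HC samples, bars for means and error bars of 1 SD. YAP1-208 is lower in 4HC, from 28.1% to 33.7% against 35.1% to 42.3%, and YAP1-203 is higher, from 24.6% to 25.8% against 17.6% to 19.9%.

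TEAD1 rose, from 146, 136 and 153 CPM in control to 158, 161 and 176 CPM in 4HC. TEAD1 (chr11:12674591-12944483, plus strand) had a fold of 1.14 and a log2 fold change of 0.19 ± 0.042 SE (adjusted p = 0.000247, edgeR), and the call held in all 15 alternatives. The groups did not overlap, although the lowest 4HC sample stood close to the highest control sample. TEAD4 rose by 0.21 on the log2 scale, from 19.8 ± 0.880 to 22.9 ± 0.461 CPM (adjusted p = 0.0154, edgeR). That call was lost with DESeq2 (adjusted p = 0.114) and in edgeR without control replicate 1 (0.0917) or without 4HC replicate 1 (0.0580). TEAD2, the most abundant TEAD in TPM, fell by 0.12 on the log2 scale with an adjusted p of 0.0491 (edgeR), and the call was lost in 9 of 15 alternatives. Among these were the fits without control replicate 1 (adjusted p = 0.387, edgeR), without 4HC replicate 2 (0.104) and without 4HC replicate 3 (0.141). TEAD3 did not pass the test (log2 fold change 0.11 ± 0.060 SE, adjusted p = 0.166, edgeR). The 4 TEADs summed to 126 ± 4.33 TPM in control and 129 ± 2.56 TPM in 4HC. TEAD1 made up 19.6% of that sum in control and 21.8% in 4HC, and TEAD2 49.6% and 44.4%.

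The vestigial-like proteins are cofactors that bind TEADs at the surface YAP1 also uses, and VGLL2 and VGLL3 had the highest TPM of the listed pathway genes. VGLL2, named after its values were seen, had 1009 ± 28.0 TPM in control and 906 ± 19.6 TPM in 4HC and stood at rank 123 of the 16798 genes by TPM in control. Its log2 fold change was -0.13 ± 0.029 SE (adjusted p = 0.000244, edgeR). VGLL3 fell by 0.15 on the log2 scale (adjusted p = 7.43e-05, edgeR), from 169 ± 5.06 to 152 ± 3.70 TPM. VGLL4 rose by 0.15 on the log2 scale (adjusted p = 0.00782, edgeR), from 34.6 ± 0.663 to 38.1 ± 1.44 TPM. All 3 calls held in every alternative run. VGLL2 alone was thus above the summed TPM of the 4 TEADs and of both coactivators in each group.

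**Figure D3:**
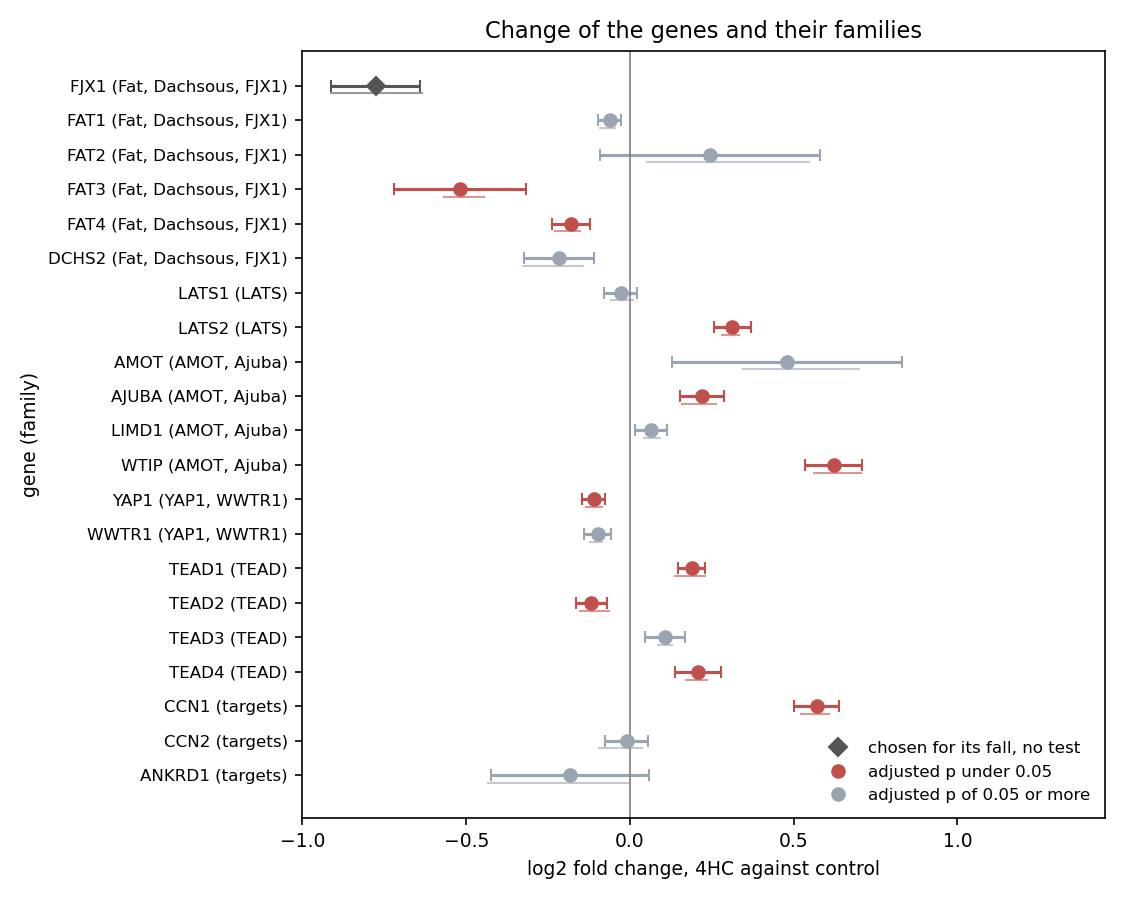
Log2 fold change of 4HC against control for FJX1, the other members and their families, with bars of 1 SE and a thin line below each for the range over fits that lack 1 sample. FJX1 (-0.78, no test) is lowest, WTIP (0.62) and CCN1 (0.57) are highest, and CCN2 (-0.01) is near 0.

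Among the target genes, CCN1 and CCN2, which code for related secreted matrix proteins and are often read together as measures of YAP1 and TAZ activity, gave different results, and the difference between them was not tested. CCN1 (chr1:85580761-85583962, plus strand) had 16.9, 18.3 and 19.1 CPM in control and 26.4, 27.1 and 27.2 CPM in 4HC, with a clear gap between the groups. It rose 1.48-fold (log2 fold change 0.57 ± 0.069 SE, adjusted p = 1.92e-09, edgeR). Leaving out samples 1 at a time kept the log2 fold change within 0.52 to 0.61. CCN2 (chr6:131948176-131951373, minus strand) had 25.9, 31.0 and 31.3 CPM in control and 28.8, 29.5 and 29.4 CPM in 4HC. Control replicate 1 was the lowest of all 6 samples and the other control samples the highest. CCN2 did not pass the test (log2 fold change -0.01 ± 0.065 SE, adjusted p = 0.924, edgeR), and the 95% interval of its fold, 0.907 to 1.09, lay below that of CCN1, 1.35 to 1.63. The ratio of CCN1 to CCN2 in TPM was 0.673, 0.607 and 0.627 in control and 0.944, 0.946 and 0.951 in 4HC. This ratio was among 6 chosen after the values were seen, so no test is given.

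ANKRD1 (chr10:90912096-90921276, minus strand), an ankyrin-repeat protein of nucleus and sarcomere, had 29, 37 and 27 counts in control and 20, 26 and 36 counts in 4HC. The groups overlapped and the test was not passed (log2 fold change -0.18 ± 0.24 SE, adjusted p = 0.587, edgeR). At this depth the 95% interval of its fold ran from 0.630 to 1.23.

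Counted together, 5 of the 8 tested members other than FJX1 passed the test, 4 of them higher in 4HC (CCN1, LATS2, AJUBA and TEAD1) and 1 lower (YAP1). Over all 12368 genes tested 36.4% passed, 19.2% higher and 17.1% lower. The count of lower members was 0 without control replicate 3, where YAP1 was lost, and 2 without control replicate 2, where WWTR1 was gained. The count of higher members fell to 3 without control replicate 2, with DESeq2 and with limma on TPM, where AJUBA was lost. In CPM the groups did not overlap for 6 of the 8, with 4HC above control for 4 and below for 2. Of all genes tested 45.3% did not overlap, 23.4% with 4HC above and 21.9% with 4HC below. All genes that passed had a median absolute log2 fold change of 0.23, a size that CCN1 and LATS2 exceeded and that AJUBA, TEAD1 and YAP1 did not. No member reached a fold change of 2, which 1.15% of all genes tested did at an unadjusted p-value under 0.05.

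By TPM in control the order of the levels was YAP1 (88.0 ± 2.88), WWTR1 (37.5 ± 1.35), TEAD1 (24.8 ± 1.59), CCN2 (22.5 ± 2.30), CCN1 (14.2 ± 0.870), LATS2 (10.5 ± 0.401), AJUBA (9.58 ± 0.602), FJX1 (6.44 ± 1.14), ANKRD1 (1.97 ± 0.335) and AMOTL2 (0). TEAD1 and CCN2 overlapped in control and no other neighbours did. The order was the same in 4HC, where no neighbours overlapped and CCN1 at 21.0 ± 0.245 TPM stood just under CCN2 at 22.2 ± 0.172 TPM. FJX1 was at 3.74 ± 0.675 TPM in 4HC, and 46.9% of listed genes were at or below its control level against 41.1% at or below its 4HC level.

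**Figure D4:**
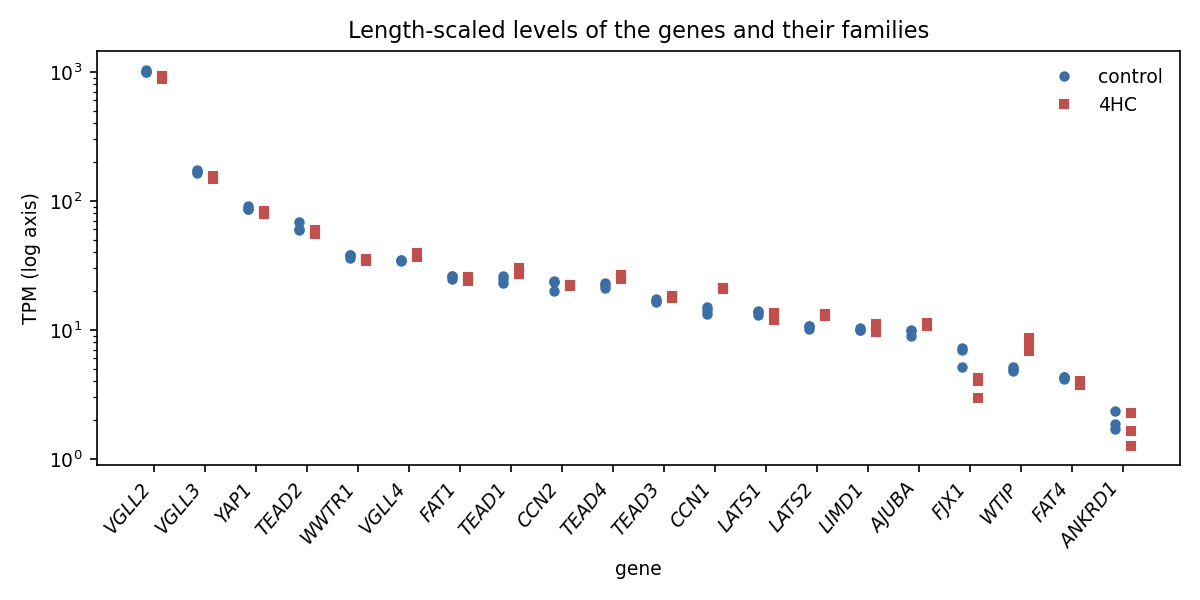
TPM (log axis) of the members and of genes of their families and VGLL cofactors in each sample, ordered by mean level in control, with circles for control and squares for 4HC. VGLL2 is highest at 1009 TPM in control, YAP1 leads the members at 88.0 TPM, and FJX1 is at 6.44 TPM in control and 3.74 TPM in 4HC.

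Of the 6 lists of pathway genes, 61 genes other than FJX1 were tested, and 13 were higher and 13 lower in 4HC (42.6%, beside 36.4% of all genes tested). Their median log2 fold change was -0.01, beside 0.00 over all genes tested. The number of higher genes was 8 without control replicate 1, and the number of lower genes was 8 without control replicate 3. In the list of known YAP and TAZ targets, which also holds FJX1, 5 of 17 other tested genes were higher and 1 was lower (35.3%), with a median of 0.05, and 3 passed with DESeq2. GADD45A, a stress-inducible gene that is also a p53 target, rose by 0.35 on the log2 scale from 28.9 ± 1.02 to 36.8 ± 1.38 CPM (adjusted p = 4.2e-06, edgeR). RBMS3, an RNA-binding protein, was the lower one, falling from 4.97 ± 0.263 to 3.44 ± 0.522 CPM (log2 fold change -0.53 ± 0.16 SE, adjusted p = 0.00598, edgeR), a call lost with DESeq2 (adjusted p = 0.0532).

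Among 17 kinases and upstream regulators, 3 were higher and 3 lower (35.3%, beside 36.4% of all genes tested), with a median of 0.00. The higher ones were LATS2, the MST kinase STK4 and the kinase MAP4K4. STK4 rose by 0.14 and MAP4K4 by 0.12 on the log2 scale (adjusted p = 0.0109 and 0.0110, edgeR). STK4 and MAP4K4 were named after their values were seen and were not followed singly over the alternatives. TAOK1, a kinase that activates the MST kinases, fell by 0.16 on the log2 scale (adjusted p = 0.00043, edgeR; 0.0655 with limma on FPKM), from 215 ± 7.68 to 193 ± 2.50 CPM. Its paralog TAOK3 and the scaffold WWC2, which binds LATS kinases, fell by 0.15 each on the log2 scale (adjusted p = 0.0279 and 0.0113, edgeR). The TAOK3 call was lost in 8 of 15 alternatives. Among them were the fits without control replicate 2 (adjusted p = 0.0726, edgeR), control replicate 3 (0.0787) or 4HC replicate 2 (0.0970). The WWC2 call was lost in 4 of 15, among them the fit without control replicate 3 (adjusted p = 0.0713, edgeR). Of the 9 genes of the STRIPAK complex, a phosphatase assembly that opposes the MST kinases, 2 were lower and 0 higher by edgeR (22.2%), and 4 passed without 4HC replicate 1. The 2 were the catalytic subunit PPP2CA (273 ± 3.36 to 235 ± 3.52 CPM, adjusted p = 7.43e-07, edgeR) and the scaffold STRN3 (68.5 ± 2.10 to 59.6 ± 4.45 CPM, adjusted p = 0.0011, edgeR). PPP2CA also serves many other phosphatase complexes. The 7 tested genes of the Fat and Dachsous list, FJX1 aside, had 1 higher and 3 lower (57.1%). Its 4 calls fell to 1 without 4HC replicate 3 or with DESeq2 or limma, and to 2 without control replicate 2, control replicate 3 or 4HC replicate 2. Of the 4 tested genes of the angiomotin and Ajuba list 2 were higher and 0 lower by edgeR (50%), and 1 passed without control replicate 2. Of the 9 coactivator, TEAD and VGLL genes 3 were higher and 4 lower (77.8%, beside 36.4% of all genes tested), with a median absolute log2 fold change of 0.13. The 7 calls of this list became 5 with DESeq2, with limma or without control replicate 1, and 8 without control replicate 2.

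**Figure D5:**
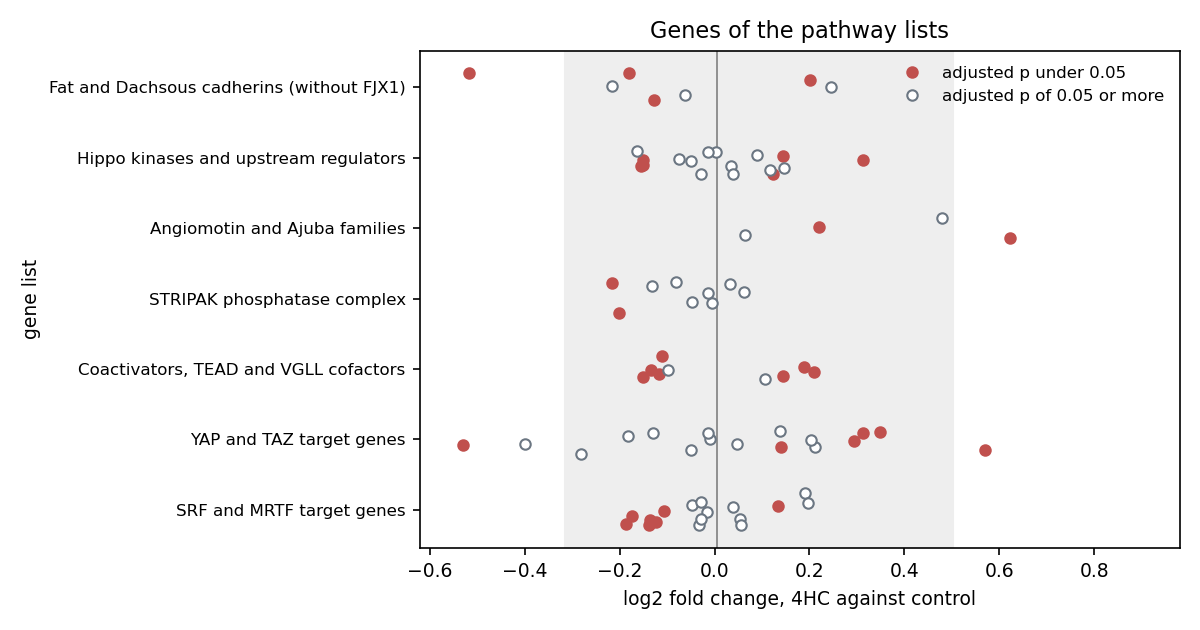
Log2 fold change of 4HC against control of each tested gene of 7 lists, FJX1 left out, filled where the adjusted p-value is under 0.05, with a grey band for the range from the 5th to the 95th percentile of all genes tested. Filled points lie on both sides of 0 in most lists. WTIP (0.62) and CCN1 (0.57) lie above the band, and RBMS3 (-0.53), FAT3 (-0.52) and, not filled, F3 (-0.40) lie below it.

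In wider lists the direction was again mixed. Of the 125 tested genes that the deposited annotation places in the KEGG Hippo pathway, 25 were higher and 24 lower (39.2%, beside 36.4% of all genes tested), and the median log2 fold change was -0.02. Among the 47 tested genes of its conserved YAP signature, 16 were higher and 10 lower (55.3%, beside the same 36.4%), with a median of -0.01. These lists were added after the data had been seen, and 6 and 4 of the 10 members are in them.

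The genes whose levels ran most like those of FJX1 were sought by the root mean square difference of log2 CPM, centred on each gene's control mean, over the 6 samples among 10372 other tested genes that reached 5 CPM in control or 4HC and had counts in every sample. The nearest were ZBTB12 (0.18), PLK1 (0.19), CDC20 (0.22), PCDH15 (0.22) and DCAF4 (0.23). PLK1, a mitotic kinase, had 116 CPM in control and 69.9 CPM in 4HC, and CDC20, an activator of the anaphase-promoting complex, had 104 and 65.7 CPM. The likeness rests on the same values for which FJX1 was chosen and is given as a description.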

How the data were processed

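Bulk RNA sequencing of 3 control and 3 4HC samples was analysed. The authors filtered the reads with SOAPnuke on the Dr. Tom system, and the submitters' processing notes name HISAT2, Bowtie2, RSEM 1.3.1, DESeq2 and the build GRCh38.p13. The authors deposited an expected count per gene and transcript (RSEM estimates, not normalized, 85.5% whole for genes). The authors scaled the deposited TPM by transcript length so that each sample sums to 1000000, and the deposited FPKM by gene length and library size. Deposited columns with fold changes, p-values and q-values of the authors' comparison were not used.

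Expected counts were rounded and tested with edgeR 4.0.16 (R 4.3.3; TMM, filterByExpr, quasi-likelihood test, condition as the only term, Benjamini-Hochberg over 12368 genes, call at adjusted p under 0.05), after the procedure had been tested on simulated data. Totals were 16133786 to 16702316 per sample, and a count of 0 allows 3 counts, for counting error only. In place of these settings, DESeq2 1.42.0, its size factors within edgeR, scaling by library size alone, no filter, a filter of 10 counts per sample, a block for the replicate number, limma 3.58.1 on log2 TPM or FPKM (pseudocount 1, for TPM also 0.1) and fits lacking 1 sample were tried.

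The members and lists were chosen with earlier results of these data known. Named were the members, their families, up to 4 genes per list with the largest changes among those that passed and had at least 1 CPM, the 5 genes nearest to FJX1 and transcripts with at least 5% of a member's counts. Gene positions are from GENCODE for GRCh38. Promoter windows are RefSeq's. No 2 replicates of a group agreed within sampling noise (chi-square per gene at least 1.70).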

Additional observations from a re-analysis of the deposited data

How the results depend on the processing

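The calls for CCN1, LATS2 and TEAD1 held in all 15 alternatives. Over 37 named genes and 553 values under alternatives, 484 kept direction and side of the threshold, 59 lost the call, 4 gained it and 6 turned direction. The causes were not tested. The values that turned were those of CCN2 (0.011 with library size alone and 0.014 with limma on FPKM) and, among fits lacking 1 sample, of ANKRD1 (-0.43 to 0.0011), CCN2 (-0.095 to 0.037) and LATS1 (-0.058 to 0.0082), none of which passed the test. Genes lower in 4HC numbered 1343 with limma on FPKM, against 2118. The members other than FJX1 that passed numbered 5, and 3 with limma on TPM at either pseudocount. The number higher was 4, but 3 with DESeq2 or limma on TPM. The number lower was 1, but 2 with DESeq2's size factors or at least 10 counts, and 0 with limma on FPKM or TPM. Of the 61 pathway list genes 26 passed, against 15 with DESeq2, 16 with limma on FPKM and 15 with limma on TPM at either pseudocount. The higher were 13, against 8 with DESeq2 and 8 with limma on TPM, and the lower 13, against 7 with DESeq2, 5 with limma on FPKM and 7 with limma on TPM. With each sample left out in turn, the members that passed numbered 4 to 5 (higher 3 to 4, lower 0 to 2). The list genes that passed numbered 19 to 26 (higher 8 to 13, lower 8 to 15).

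Same-numbered samples had correlations of 0.019, 0.077 and 0.022. Control replicates 2 and 3 correlated best with the 4HC sample of the same number, but control replicate 1 with 4HC replicate 3 (0.052). The numbers were not taken to pair the samples. With the replicate block 4213 genes passed against 4497, the members that passed numbered 5 again, and the list genes 24 against 26. TEAD2 and LIX1L lost their calls under the block (adjusted p = 0.0511 and 0.0563, edgeR). Depth limited AMOTL2, AMOT, AMOTL1, DCHS1 and ANKRD1.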

Other observations

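Genes that the serum response factor SRF and its MRTF coactivators are known to drive, many of them actin cytoskeleton genes and some shared with YAP1, were listed apart from the pathway. Of the 17 tested, 1 was higher and 6 were lower in 4HC, or 41.2% beside 36.4% of all genes tested (19.2% higher and 17.1% lower). The median log2 fold change was -0.03 beside 0.00 over all genes tested. ACTB, cytoplasmic actin, fell from 6529 ± 178 to 5790 ± 164 CPM (log2 fold change -0.17 ± 0.028 SE, adjusted p = 1.88e-06, edgeR). ZYX, the focal adhesion protein zyxin, fell by 0.19 on the log2 scale, from 211 ± 6.76 to 185 ± 9.66 CPM (adjusted p = 7.23e-05, edgeR). The tropomyosins TPM1 and TPM4 each fell by 0.14 on the log2 scale (adjusted p = 0.000448 and 0.00025, edgeR). These 4 calls held in all 15 alternatives. The 1 higher gene, TAGLN, rose by 0.13 on the log2 scale, from a mean of 434 to 476 CPM (adjusted p = 0.00115, edgeR). TAGLN was named after its values were seen and was not followed singly over the alternatives.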
